A study of Mus musculus with 6 samples.

Results

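Threonyl-tRNA synthetases join threonine to its transfer RNAs, and mouse cells carry 3 genes for them: Tars2 for the mitochondrial enzyme, Tars for the cytosolic enzyme and Tarsl2 for a cytosolic paralog. These 3 genes were taken by symbol from the 55401 genes of the expression table, and all 3 were among the 14209 genes that passed the filter on low values. Their mRNA was measured by poly(A) RNA sequencing in a mutated derivative of NIH-3T3 (MU, 3 libraries) and in unmutated NIH-3T3 (WT, 3 libraries). NIH-3T3 is an established line of mouse embryonic fibroblasts, and both groups grew as plain cultures in the same medium with fetal bovine serum. The study's title concerns infidelity of mitochondrial translation, a question on which the mitochondrial member of this family bears directly.

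The labels give the genotype as MU or WT and do not state which gene carries the mutation, what the change is, or whether the derivative is a clone. Since the labels separate the cultures only as MU and WT, what the mutation did and what else sets them apart cannot be told apart. Nothing in the labels says that replicates were grown separately. The p-values thus rest on the spread between libraries, which may be only technical. A gene-level mRNA value does not read a sequence change, so the levels below are no check of the genotype. In bulk RNA, fewer cells that express a gene and less of its RNA per cell cannot be told apart.

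Serine is close to threonine in size and is sometimes attached to threonine tRNA by mistake. Threonyl-tRNA synthetases carry an editing domain that removes it, so that serine is not built into proteins at threonine codons. Mitochondria translate the mRNAs of their own genome, which encode core subunits of the respiratory chain, and they depend for this on synthetases made from nuclear genes and imported.

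The coding sequences around the editing site are shown first because all 3 genes hold them. They also bear on whether reads of 1 member could be counted for another. The editing domain holds a pair of sequence patterns, a histidine followed 4 residues later by another histidine (HxxxH) and a cysteine followed 4 residues later by a histidine (CxxxH), where x is any residue. Each stretch below is 75 coding bases of the GENCODE M21 transcript, written 5′ to 3′ on the strand of the gene, with the codons of the outer residues of the pattern in capitals. The coordinates are GRCm38, the assembly also called mm10, and each stretch crosses an intron, which is left out of the letters. For HxxxH these are codons 138 to 142 of Tars2 (chr3:95751577-95753027, minus strand, exons 3 and 4), codons 154 to 158 of Tars (chr15:11392855-11393177, minus strand, exons 4 and 5) and codons 222 to 226 of Tarsl2 (chr7:65652363-65655737, plus strand, exons 4 and 5).
Tars2 HxxxH: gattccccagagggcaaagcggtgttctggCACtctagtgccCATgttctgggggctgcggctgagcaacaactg
Tars HxxxH: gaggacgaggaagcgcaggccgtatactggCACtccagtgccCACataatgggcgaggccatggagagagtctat
Tarsl2 HxxxH: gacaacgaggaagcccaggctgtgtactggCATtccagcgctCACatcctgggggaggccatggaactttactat

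For CxxxH these are codons 245 to 249 of Tars2 (chr3:95750351-95750708, minus strand, exons 6 and 7), codons 260 to 264 of Tars (chr15:11391826-11391977, minus strand, exons 7 and 8) and codons 328 to 332 of Tarsl2 (chr7:65661176-65662367, plus strand, exons 7 and 8).
Tars2 CxxxH: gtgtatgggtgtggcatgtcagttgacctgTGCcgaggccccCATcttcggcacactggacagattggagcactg
Tars CxxxH: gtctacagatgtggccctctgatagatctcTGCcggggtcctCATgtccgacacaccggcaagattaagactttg
Tarsl2 CxxxH: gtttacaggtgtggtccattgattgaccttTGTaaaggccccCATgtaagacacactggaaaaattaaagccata

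Both patterns were found in all 3 coding sequences. Over the HxxxH stretch, Tars differed from Tars2 at 34 of 75 bases and Tarsl2 differed from Tars2 at 33. The cytosolic members Tars and Tarsl2 differed from each other at 17 bases there. Over the CxxxH stretch the differences from Tars2 were 29 bases for Tars and 25 for Tarsl2, and Tars and Tarsl2 differed at 24.

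Across the whole coding sequence the cytosolic members were the closest pair. The annotated transcripts used here encode 723 residues for Tars2, 722 for Tars and 790 for Tarsl2, and their coding GC content was 55.3%, 49.3% and 49.1% in that order. Translated and aligned, Tars2 matched Tars at 55.2% of 694 aligned residues and Tarsl2 at 56.6% of 696, while Tars matched Tarsl2 at 70.7% of 716. The longest run of identical coding bases between any 2 of them was 19. No stretch of 50 bases was shared between transcripts of any 2 of the 3 genes, so reads of that length or longer that match exactly belong to no more than 1 of the 3. Stretches of 50 bases shared with any other gene made up 0.459% of those of Tars2, 0.181% of those of Tars and 1.99% of those of Tarsl2. Of the 134 such Tarsl2 stretches, 73 were shared with Tm2d3, whose gene overlaps the end of Tarsl2 on the same strand by 923 bases.

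The cytosolic gene had the highest TPM of the 3 and its paralog the lowest, in MU and in WT alike. Levels are given in TPM, transcripts scaled to a fixed total per library, a unit that divides by a length for each gene. Which length was used is not stated. All annotated exons together span 6932 bases for Tars2, 5901 for Tars and 6741 for Tarsl2. The coding transcripts used above have 2400, 4005 and 3192 bases in that order. How the genes stand to each other within a library may depend on that choice. The mean TPM of Tars2 was 21.5% lower in MU and its 2 groups did not overlap, but the difference did not pass the test over all genes. Tars and Tarsl2 differed between the groups by less than the spread between libraries.

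Tars2 (ENSMUSG00000028107.14, chromosome 3, 95739976 to 95760206, minus strand, protein-coding, 19 annotated transcripts) encodes the enzyme that charges threonine tRNA inside mitochondria. It was at 49.1, 42.1 and 44.7 TPM in MU replicates 1 to 3, and at 56.8, 53.7 and 62.6 TPM in WT replicates 1 to 3. Every MU library lay below every WT library, with MU replicate 1 and WT replicate 2 nearest to each other. The means were 45.3 ± 3.54 TPM in MU and 57.7 ± 4.53 TPM in WT (SD, n = 3 each). The log2 fold change was −0.34 (SE 0.10, 95% confidence interval −0.58 to −0.11, limma adjusted p = 0.057 by Benjamini-Hochberg over all tested genes). That adjusted p misses the threshold of 0.05. As a ratio, the interval runs from 0.67 to 0.93 of the WT level. All MU libraries lay below all WT libraries in 23.0% of tested genes, and an unadjusted p under 0.05 was reached by 33.4% of them, so Tars2 shares both features with a large part of the transcriptome.

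Tars (ENSMUSG00000022241.6, chromosome 15, 11382301 to 11399665, minus strand, protein-coding, 7 annotated transcripts) encodes the enzyme that charges threonine tRNA for translation in the cytosol. It was at 83.9, 79.3 and 85.1 TPM in MU replicates 1 to 3, and at 81.0, 78.6 and 85.5 TPM in WT replicates 1 to 3. The groups overlapped almost fully, with replicate 2 the lowest in each. The means were 82.7 ± 3.07 TPM in MU and 81.7 ± 3.50 TPM in WT (SD, n = 3 each). The log2 fold change was 0.02 (SE 0.08, 95% confidence interval −0.17 to 0.20, limma adjusted p = 0.893).

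Tarsl2 (ENSMUSG00000030515.9, chromosome 7, 65644898 to 65692091, plus strand, protein-coding, 4 annotated transcripts) encodes a second cytosolic enzyme with an N-terminal extension of its own. It was at 11.4, 12.2 and 11.4 TPM in MU replicates 1 to 3, and at 12.4, 11.1 and 11.4 TPM in WT replicates 1 to 3. The highest and the lowest library were both WT, so the MU values lay inside the WT range. The means were 11.7 ± 0.477 TPM in MU and 11.6 ± 0.712 TPM in WT (SD, n = 3 each). The log2 fold change was 0.01 (SE 0.10, 95% confidence interval −0.23 to 0.24, limma adjusted p = 0.976). The intervals for Tars and Tarsl2 hold 0 and also hold changes of either sign up to the bounds given. With 3 libraries per group, changes within those bounds were not excluded. The bounds are not limits of what the test over all genes could call.

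**Figure D1:**
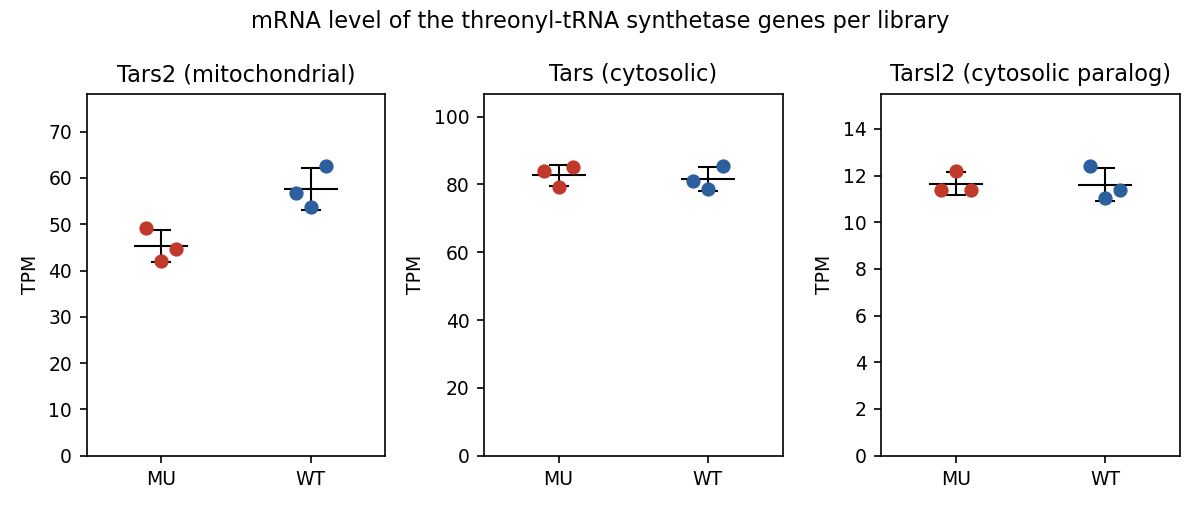
TPM of Tars2, Tars and Tarsl2 (vertical axes, linear from 0, a scale for each gene) in MU and WT. Points are replicates 1 to 3 from left to right, the long bar is the mean and the error bar is 1 SD (n = 3). The Tars2 points of MU lie at 42.1 to 49.1 TPM, all under the WT points at 53.7 to 62.6 TPM, while the points of Tars and Tarsl2 overlap between groups.

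None of the 3 genes passed at an adjusted p under 0.05, against 18.8% of all tested genes (2667 of 14209, with 7.12% higher and 11.6% lower in MU). The median log2 fold change over all tested genes was −0.05, and the median SE over tested protein-coding genes was 0.14, above the SE of each of the 3 genes. In the authors' deposited table, which holds its own log2 fold changes of MU against WT, Tars2 stood at −0.28 with a p-value of 0.0302 and an adjusted p-value of 0.114. In the authors' deposited table Tars stood at 0.07 (adjusted p-value 0.732) and Tarsl2 at 0.06 (adjusted p-value 0.846). Neither analysis thus called any member of the family, where the authors' deposited table has an adjusted p-value under 0.05 for 21.1% of its genes with a value (9.42% higher and 11.6% lower in MU).

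The order of the 3 levels was Tars, Tars2, Tarsl2 in all 6 libraries. The lowest Tars value, 79.3 TPM in MU and 78.6 TPM in WT, stood above the highest Tars2 value of the same group, 49.1 TPM in MU and 62.6 TPM in WT. Tarsl2 lay far below both, with its highest value at 12.2 TPM in MU and 12.4 TPM in WT. Among tested protein-coding genes, Tars2 stood at the 74.3 percentile of mean level in MU and the 78.2 percentile in WT. Tars stood at the 87.2 percentile in MU and the 85.5 percentile in WT, and Tarsl2 at the 33.1 percentile in MU and the 32.3 percentile in WT. The coefficient of variation between libraries was 7.80% in MU and 7.85% in WT for Tars2, 3.70% in MU and 4.29% in WT for Tars, and 4.09% in MU and 6.13% in WT for Tarsl2.

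The balance between the mitochondrial and the cytosolic enzyme was then set out as a ratio within each library, which no factor applied to a whole library can alter. The TPM of Tars2 over that of Tars was 0.586, 0.531 and 0.526 in MU replicates 1 to 3, and 0.702, 0.683 and 0.733 in WT replicates 1 to 3. The groups did not overlap, and the gap between them was wider than the range of either group. The mean ratio was 0.547 ± 0.0332 in MU and 0.706 ± 0.0249 in WT (SD, n = 3 each). The difference in the log2 ratio was −0.37, with a two-sided exact permutation p = 0.1, the smallest that 3 libraries against 3 allow. With this number of libraries the permutation test cannot reach 0.05. Leaving out any 1 library gave differences of −0.42 to −0.34.

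The balance between the cytosolic paralogs did not separate the groups. Tarsl2 per Tars was 0.136, 0.154 and 0.134 in MU replicates 1 to 3, and 0.153, 0.141 and 0.133 in WT replicates 1 to 3, with full overlap. The difference in the log2 ratio was −0.01 (two-sided exact permutation p = 1.0), and it changed sign when MU replicate 1, MU replicate 3 or WT replicate 1 was left out (0.01, 0.03 and 0.04). The 3 genes together summed to 144, 134 and 141 TPM in MU and to 150, 143 and 159 TPM in WT, a difference of −11.2 TPM between overlapping groups (two-sided exact permutation p = 0.2). Leaving out 1 library gave differences of −15.1 TPM, without WT replicate 2, to −7.01 TPM, without WT replicate 3. Of that sum, Tars2 made up 32.4% ± 1.40 in MU and 38.2% ± 0.952 in WT (SD, n = 3 each). The share of Tars was 59.2% ± 1.10 in MU and 54.1% ± 0.638 in WT, and that of Tarsl2 was 8.37% ± 0.677 in MU and 7.71% ± 0.563 in WT.

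**Figure D2:**
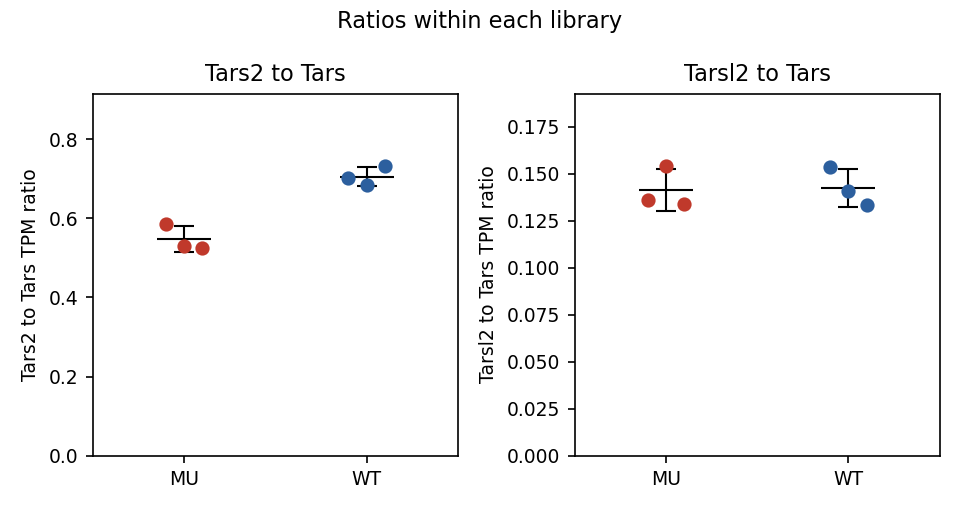
Ratio of Tars2 to Tars and of Tarsl2 to Tars within each library (vertical axes, linear from 0, TPM over TPM) in MU and WT. Points are replicates 1 to 3 from left to right, with the mean and 1 SD (n = 3). The ratio of Tars2 to Tars is 0.526 to 0.586 in MU and 0.683 to 0.733 in WT, without overlap, and the ratio of Tarsl2 to Tars overlaps.

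To see how unusual this balance was, the same ratio was taken for 17 amino acids with separate mitochondrial and cytosolic synthetase genes. Threonine was among those with the highest TPM ratios: it ranked 3 of 17 in MU, after leucine and histidine, and 2 of 17 in WT, after leucine. These ranks compare different genes, so they may depend on the lengths used for TPM, which are not stated. Against its own 0.547 in MU and 0.706 in WT, the median over the 17 pairs was 0.133 in MU and 0.147 in WT. Libraries overlapped between threonine and histidine, since histidine spanned 0.530 to 0.717 in MU and 0.410 to 0.716 in WT, so the order of these neighbours is not beyond their spread. In MU, isoleucine at 0.496 to 0.545 also overlapped threonine, so its place there is not settled on either side.

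Other pairs separated MU from WT too. Of the other 16 pairs, 5 also had groups that did not overlap, named here after their values were seen: glutamate, proline and tyrosine with lower ratios in MU, and alanine and isoleucine with higher ratios in MU. Groups did not overlap in 39.2% of single tested genes, and glutamate and proline share the cytosolic gene Eprs as denominator. The changes in log2 ratio ran from −0.64 for proline to 0.71 for isoleucine with a median of 0.02, and threonine at −0.37 was the fifth lowest of 17. Serine, the amino acid that threonyl-tRNA synthetases mistake for their own, had 0.128 ± 0.00499 in MU and 0.132 ± 0.0106 in WT (SD, n = 3 each), a change of −0.05 with overlapping groups. Alanine, whose synthetase has an editing domain related to that of threonine, had 0.125 ± 0.00982 in MU and 0.0975 ± 0.000885 in WT, a change of 0.36.

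**Figure D3:**
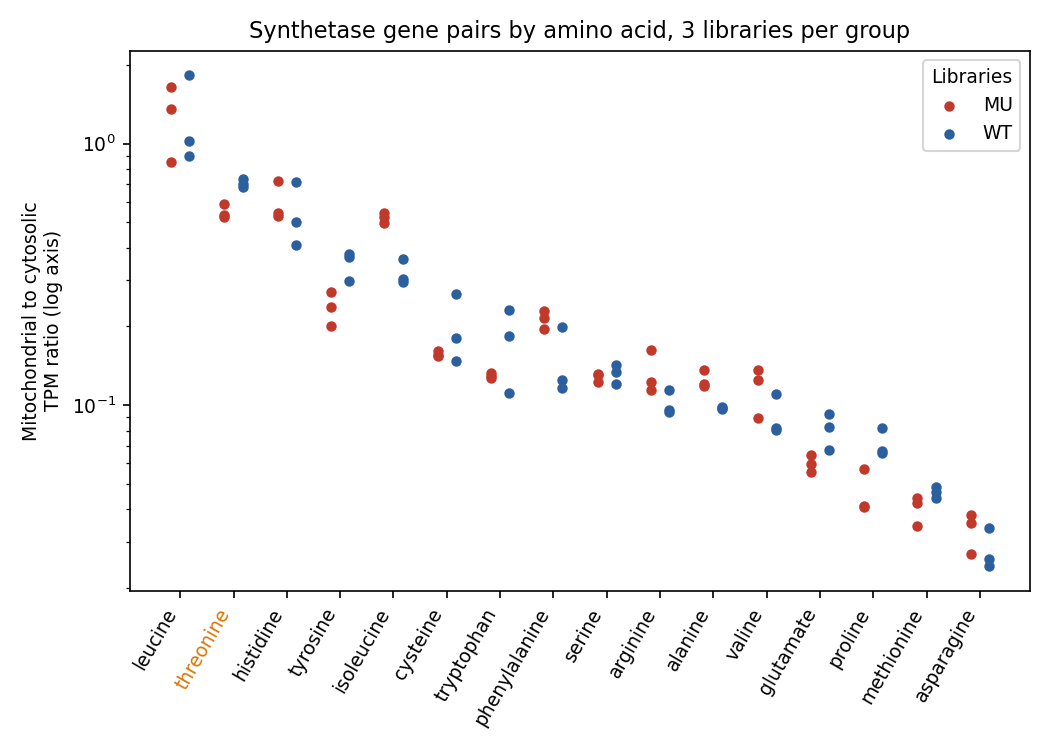
TPM of the mitochondrial synthetase over that of the cytosolic one for 16 of the 17 amino acids (vertical axis, log scale), with 3 MU libraries to the left of 3 WT libraries for each amino acid, ordered by the mean WT ratio. Threonine, in orange on the axis, sits second with MU at 0.526 to 0.586 under WT at 0.683 to 0.733.

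Among the 17 mitochondrial synthetases, Tars2 had the second highest level in both groups, after Lars2, the leucine enzyme, at 151 ± 50.4 TPM in MU and 146 ± 30.7 TPM in WT. Its log2 fold change was the third lowest of the 17, and 2 lower genes passed the test. Yars2, the tyrosine enzyme, fell to 28.7 ± 2.00 TPM in MU, against 43.3 ± 3.25 TPM in WT (log2 fold change −0.58, SE 0.10, limma adjusted p = 0.0104). Cars2, the cysteine enzyme, fell to 16.6 ± 0.980 TPM in MU, against 21.5 ± 0.870 TPM in WT (−0.35, SE 0.09, limma adjusted p = 0.0414). Tars2, with nearly the same fold change as Cars2 and a slightly larger SE, lay on the other side of the threshold.

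None of the 17 passed as higher on the deposited scale. The nearest was Iars2, the isoleucine enzyme, at 39.1 ± 0.412 TPM in MU and 30.7 ± 3.93 TPM in WT (0.35, limma adjusted p = 0.0747). It passed as higher under quantile normalization (0.43, limma adjusted p = 0.0315), median-of-ratios scaling (0.41, 0.0303) and GC correction (0.41, 0.0134). It also passed as higher without WT replicate 3 (0.42, limma adjusted p = 0.0449). Quantile normalization, median-of-ratios scaling and leaving out WT replicate 3 each left the list with 1 call higher and 1 lower. The serine and alanine enzymes of mitochondria overlapped between groups, with Sars2 at 14.3 ± 1.22 TPM in MU and 16.1 ± 1.29 TPM in WT, and Aars2 at 13.1 ± 1.55 TPM in MU and 13.3 ± 0.854 TPM in WT. The median log2 fold change of the 17 genes was −0.02, beside −0.05 over all tested genes, and 2 of 17 called stands beside the background of 18.8%. Of the 16 mitochondrial synthetases other than Tars2, 4 did not overlap between groups, beside 39.2% of all tested genes.

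The cytosolic list of 21 genes held 1 call higher and 4 lower, beside 7.12% higher and 11.6% lower of all tested genes, and both threonine genes sat close to no change in it. Quantile normalization or median-of-ratios scaling left 1 call higher and 1 lower. Tars ranked 15 of 21 by level in MU and 17 of 21 in WT, and Tarsl2 was the lowest of the 21 in each group. Eprs, which encodes the joint enzyme for glutamate and proline, rose to 116.7 ± 0.330 TPM in MU, against 80.4 ± 5.63 TPM in WT (0.53, limma adjusted p = 0.0075). Farsa, a subunit of the phenylalanine enzyme, fell to 59.5 ± 4.83 TPM in MU, against 87.3 ± 3.18 TPM in WT (−0.55, limma adjusted p = 0.0089). Vars, the valine enzyme, fell to 149 ± 2.58 TPM in MU, against 194 ± 11.8 TPM in WT (−0.38, limma adjusted p = 0.0212). Aars, the alanine enzyme, fell to 104.7 ± 4.60 TPM in MU, against 136 ± 7.60 TPM in WT (−0.38, limma adjusted p = 0.0238). Over all alternatives, the call was lost 1 time for Eprs, 3 times for Farsa, 7 times for Vars and 9 times for Aars.

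The fifth call was Hars, the histidine enzyme, named after its values were seen, with a log2 fold change of −0.42 (limma adjusted p = 0.0301). Sars, the serine enzyme, was at 112 ± 7.40 TPM in MU and 122 ± 19.98 TPM in WT (−0.12, limma adjusted p = 0.571), and Dars, the aspartate enzyme, at 85.4 ± 4.69 TPM in MU and 75.2 ± 15.1 TPM in WT (0.20, limma adjusted p = 0.425). The median over the 21 was −0.07. Both counts of calls are sensitive to single libraries: leaving out 1 library gave 0 to 3 calls among the mitochondrial genes and 1 to 7 among the cytosolic ones, with 0 mitochondrial calls without MU replicate 2 and 1 cytosolic call without it. Calls over all tested genes moved too, from 2667 to 1071 without MU replicate 2 and to 3391 without WT replicate 2. When fold changes were centred on those of neighbouring genes, Cars2 changed sign (0.07) and the fall of Aars shrank to −0.03, while Tars2 stood at −0.35.

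**Figure D4:**
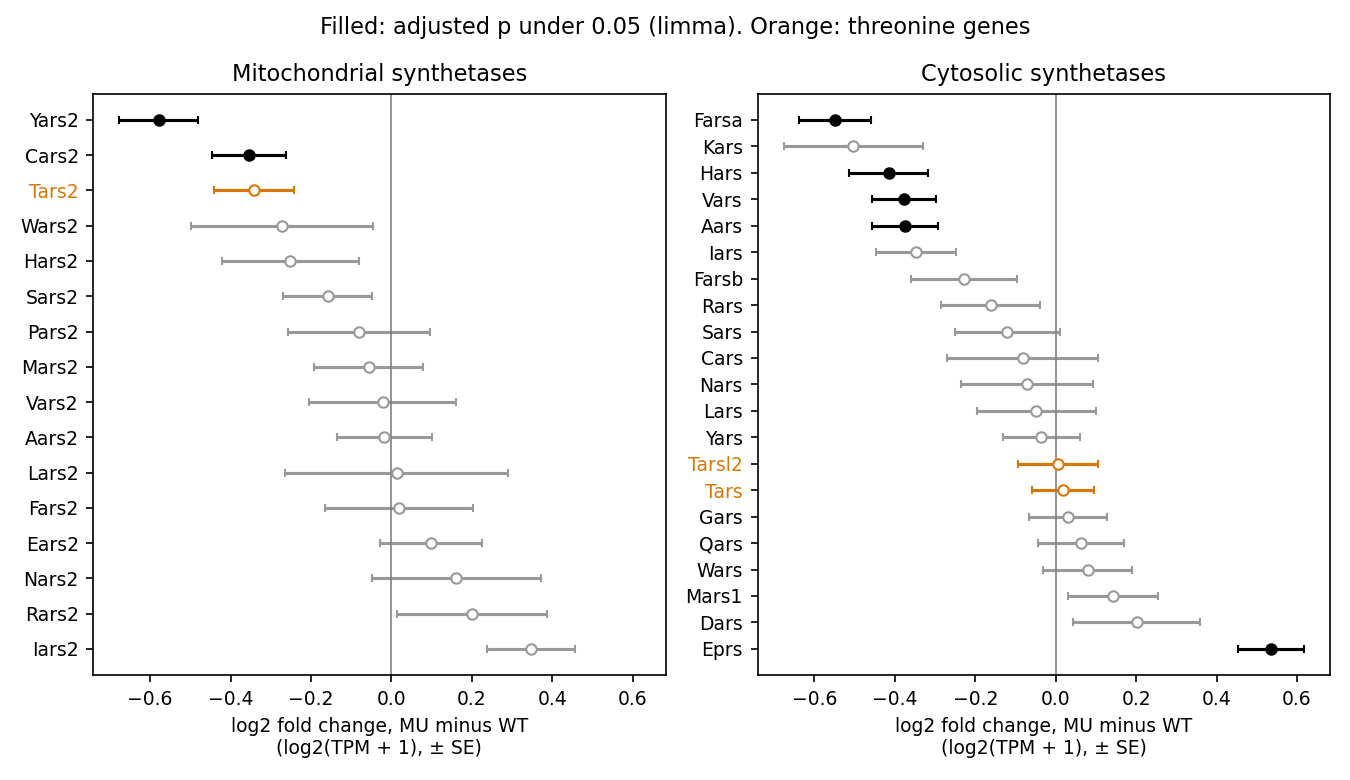
Log2 fold change of MU minus WT (horizontal axes, log2(TPM + 1) scale, bars ± 1 SE) of 16 of the 17 mitochondrial and all 21 cytosolic synthetase genes, 3 libraries per group. Filled points passed at a limma adjusted p under 0.05 and the threonine genes are in orange. Tars2 at −0.34 is the third lowest of its list and open, and Tars at 0.02 and Tarsl2 at 0.01 lie at the line of no change.

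Several cytosolic synthetases assemble into a complex held together by scaffold proteins, and 2 of the 3 scaffold genes fell, beside 11.6% of all tested genes. Eef1e1 was at 16.5 ± 2.86 TPM in MU and 28.1 ± 2.89 TPM in WT (−0.74, limma adjusted p = 0.0188). Aimp2 was at 67.5 ± 2.00 TPM in MU and 99.4 ± 13.9 TPM in WT (−0.54, limma adjusted p = 0.0222). Aimp1, the third scaffold, was at 136 ± 4.36 TPM in MU and 123 ± 12.5 TPM in WT (0.15, limma adjusted p = 0.321). Centred on neighbouring genes, Aimp2 no longer passed (−0.29, limma adjusted p = 0.147) and Aimp1 passed as higher (0.44, 0.0286). Over all alternatives, the call was lost 4 times for Eef1e1 and 7 times for Aimp2.

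Proteins that act in trans on wrongly charged tRNAs or work beside editing enzymes were listed as 5 genes, of which 1 fell, beside 11.6% of all tested genes. Aarsd1, a free-standing protein related to the editing domain of the alanine enzyme, was at 39.7 ± 1.18 TPM in MU and 63.2 ± 11.3 TPM in WT (−0.64, limma adjusted p = 0.0195), and the call was lost under 5 alternatives (limma adjusted p up to 0.117). Ankrd16, a partner of the alanine enzyme that takes up misactivated serine, was at 39.6 ± 2.13 TPM in MU and 36.3 ± 4.38 TPM in WT (limma adjusted p = 0.465). The deacylases Dtd1 and Dtd2 and the related Prorsd1 were at low levels that overlapped between groups. Dtd1 was at 6.44 ± 1.90 TPM in MU and 5.75 ± 1.72 TPM in WT (limma adjusted p = 0.743). Dtd2 was at 12.4 ± 1.92 TPM in MU and 11.7 ± 1.96 TPM in WT (limma adjusted p = 0.76), and Prorsd1 at 3.34 ± 0.574 TPM in MU and 4.28 ± 1.003 TPM in WT (limma adjusted p = 0.368).

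Threonine is also a substrate of tRNA modification, as the base t6A is made from it. None of the 10 tested genes of the list for this modification and for modification of threonine tRNA passed in either direction, beside 18.8% of all tested genes. Their median was −0.07, beside −0.05 over all tested genes. The nearest was Osgepl1, which makes t6A in mitochondria, at 11.2, 10.5 and 9.48 TPM in MU and 7.90, 6.29 and 7.69 TPM in WT. Its groups did not overlap, and its log2 fold change of 0.46 had a limma adjusted p = 0.0527. The cytosolic counterpart Osgep was at 19.1 ± 3.89 TPM in MU and 14.7 ± 3.36 TPM in WT, and Yrdc, which makes the precursor for both, at 98.8 ± 2.89 TPM in MU and 131 ± 41.9 TPM in WT. Mettl2, which methylates cytosolic threonine tRNA, was at 29.1 ± 2.32 TPM in MU and 33.1 ± 3.15 TPM in WT.

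Of 7 tested transporter genes that carry threonine or pair with those that do, 2 rose and 2 fell, beside 7.12% higher and 11.6% lower of all tested genes. Slc1a4, a neutral amino acid exchanger, rose to 48.6 ± 0.278 TPM in MU, against 31.7 ± 1.37 TPM in WT (0.60, limma adjusted p = 0.0042). Slc38a4, a sodium-coupled importer, rose to 68.2 ± 2.08 TPM in MU, against 50.01 ± 2.76 TPM in WT (0.44, limma adjusted p = 0.0134). The related importer Slc38a1 fell to 51.4 ± 2.054 TPM in MU, against 70.6 ± 6.47 TPM in WT (−0.45, limma adjusted p = 0.0224). Slc7a5, the light chain of a large neutral amino acid exchanger, fell to 131 ± 6.04 TPM in MU, against 173 ± 16.1 TPM in WT (−0.39, limma adjusted p = 0.034). Under alternatives, the call was lost 4 times for Slc38a4, 7 times for Slc38a1 and 12 times for Slc7a5. Slc7a8 did not pass the filter, with at most 0.0536 TPM in any library.

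Genes for the breakdown of threonine were mostly not expressed at a level that could be tested. Tdh, threonine dehydrogenase, was listed at 0 in all 6 libraries, and Sds, Sdsl and Thnsl2 did not pass the filter on low values. Their means in MU and WT were 0.153 and 0.875 TPM for Sds, 0.542 and 0.335 TPM for Sdsl, and 0.0667 and 0.0506 TPM for Thnsl2. Gcat, which acts on the product of threonine dehydrogenase, was at 61.8 ± 8.89 TPM in MU and 74.3 ± 18.8 TPM in WT (−0.24, limma adjusted p = 0.481).

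The tRNA that the Tars2 enzyme charges is encoded by mt-Tt in the mitochondrial genome (chromosome M, 15289 to 15355, plus strand, 67 bases in GENCODE M21). It is printed because it is the substrate of the enzyme, as the gene's DNA strand, with the anticodon in capitals.
mt-Tt: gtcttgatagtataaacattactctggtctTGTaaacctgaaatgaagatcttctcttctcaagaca
mt-Tt was listed at 0 in all 6 libraries of this poly(A) protocol, so its abundance could not be compared. Messenger RNAs encoded by mitochondrial DNA took up 14.6% ± 0.753 of all TPM in MU and 10.7% ± 1.96 in WT (SD, n = 3 each). Rescaling without all genes of the mitochondrial genome, these messenger RNAs included, put the Tars2 log2 fold change at −0.28 (limma adjusted p = 0.134).

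The promoter of Tars is shown because it differs from the other members in 1 feature that a search found. The letters TGATGCAA, or TTGCATCA on the opposite strand, form a variant of the composite element that the stress factor ATF4 is known to bind. They were searched on both strands in the 250 bases before each RefSeq start on GRCm38.p6. All 3 genes matched a RefSeq promoter. Only that of Tars held the letters, in capitals here, ending 7 bases before the start (chr15:11399659-11399908, minus strand).
Tars promoter: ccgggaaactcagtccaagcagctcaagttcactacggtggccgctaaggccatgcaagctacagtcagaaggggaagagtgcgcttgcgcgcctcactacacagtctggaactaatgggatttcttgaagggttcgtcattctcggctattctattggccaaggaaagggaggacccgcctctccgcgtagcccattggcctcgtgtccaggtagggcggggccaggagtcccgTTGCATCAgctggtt
The same letters occurred in 0.791% of all RefSeq promoter windows of this length (260 of 32851). Among synthetases with a matched promoter they occurred in 0 of 14 mitochondrial and 2 of 14 cytosolic genes, Aars and Tars. These genes had log2 fold changes of −0.38 and 0.02. A match is a description of letters, and the windows without one say only that these letters are not there. The RefSeq start used for Tars2 lies inside the span that GENCODE M21 gives the gene.

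The neighbourhood of each gene was described next, because fold changes were uneven between chromosomes. On chromosome 3, which carries Tars2, 73.1% of 558 tested protein-coding genes had the lower mean in MU, with a median log2 fold change of −0.22. The median over all tested protein-coding genes was −0.07. The 40 nearest tested protein-coding genes around Tars2 did not share the low median of the chromosome. Their median was −0.04, over a span of 1451 kb. Of these 40, 9 had a lower log2 fold change than Tars2, and 1 passed as higher and 4 as lower, beside 7.12% and 11.6% of all tested genes. The nearest, Ecm1 (65.6 ± 3.94 TPM in MU and 62.9 ± 9.27 TPM in WT, 0.07) and Rprd2 (29.6 ± 1.87 TPM in MU and 26.2 ± 5.88 TPM in WT, 0.19), overlapped between groups.

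Chromosome 15, which carries Tars, had a median of 0.04 over 460 genes, and 45.0% of them averaged lower in MU. Around Tars the median of 40 neighbours, spread over 24823 kb, was −0.04. Of them, 2 were called higher and 8 lower, beside 7.12% and 11.6% of all tested genes. Npr3, its nearest tested neighbour at higher coordinates, fell to 3.15 ± 0.230 TPM in MU, against 7.19 ± 0.589 TPM in WT (−0.98, limma adjusted p = 0.0045), while Adamts12 on the other side was at 4.58 ± 0.152 TPM in MU and 3.05 ± 0.400 TPM in WT (limma adjusted p = 0.0643). On chromosome 7, which carries Tarsl2, the median was −0.06 over 859 genes and 58.0% averaged lower in MU. The 40 neighbours of Tarsl2, spread over 24012 kb, had a median of −0.07. Of them, 1 was called higher and 8 lower, beside the same shares of all tested genes. Tjp1 on 1 side was at 35.9 ± 3.98 TPM in MU and 36.8 ± 4.55 TPM in WT (limma adjusted p = 0.891), and the overlapping Tm2d3 at 33.6 ± 1.39 TPM in MU and 40.3 ± 8.80 TPM in WT (limma adjusted p = 0.347).

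**Figure D5:**
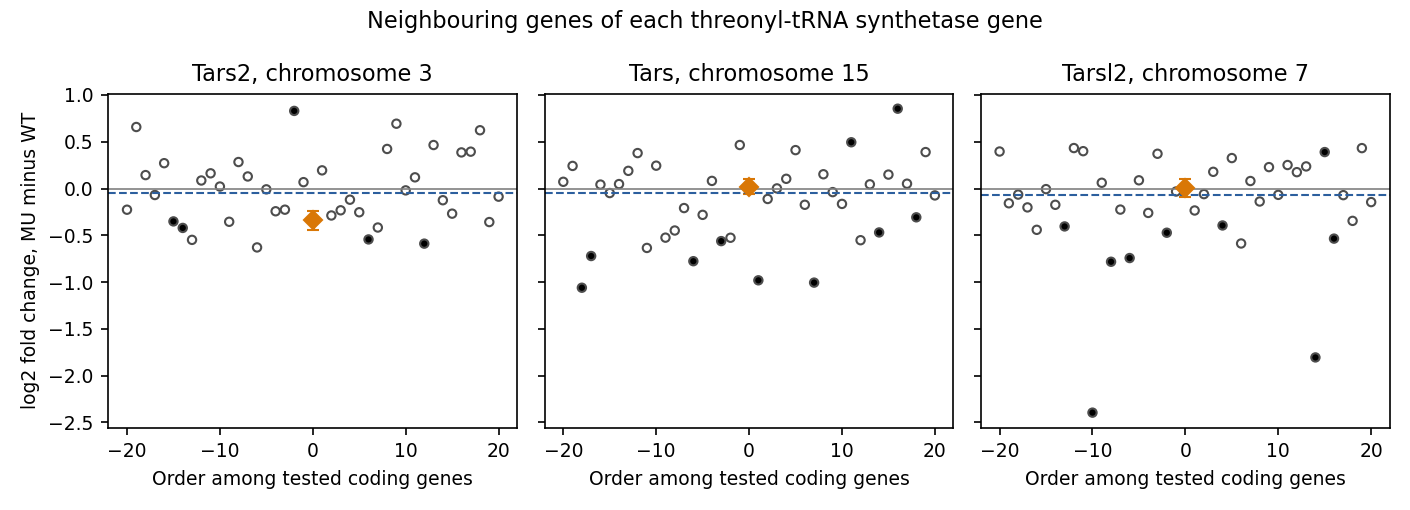
Log2 fold change of MU minus WT (vertical axes, 3 libraries per group) of the 20 nearest tested protein-coding genes on each side of Tars2, Tars and Tarsl2, in chromosome order (horizontal axes, gene order and not distance). Filled circles passed at a limma adjusted p under 0.05, the dashed line is the median of the 40 neighbours, and the orange diamond with its SE is the member. Tars2 at −0.34 lies under the median of −0.04, with 9 neighbours lower, and Tars and Tarsl2 lie near 0.

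The genes whose pattern over the 6 libraries was most like that of each member were looked up by Pearson correlation of log2(TPM + 1) among 9456 protein-coding genes whose mean reached 5 TPM. Because the highest values were picked out of that many and all points share the same 6 libraries and their scaling, the correlations are a description. Tars2 was followed most closely by Pi4k2b (r = 0.992), which encodes a phosphatidylinositol kinase, by Cox11 (r = 0.990), an assembly factor of cytochrome oxidase, and by Mphosph9 (r = 0.989). Tars was followed by Aldh18a1 (r = 0.982), the first enzyme of proline synthesis from glutamate, by Lrig2 (r = 0.968) and by Rdh14 (r = 0.964). Tarsl2 was followed by Mynn (r = 0.982), Cnot4 (r = 0.979) and Usp24 (r = 0.977). In absolute terms the most alike genes stood lower than Tars2, with Pi4k2b at 25.7, 21.9 and 23.9 TPM in MU and 28.8, 26.8 and 30.7 TPM in WT. Cox11 stood at 17.4, 14.03 and 15.6 TPM in MU and 22.7, 19.2 and 24.2 TPM in WT.

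The libraries themselves were alike in the number of genes at 1 TPM or more, 13944 to 14146 in MU and 13956 to 14079 in WT. Depth is unknown, since TPM keeps none. They differed in how a library's deviation from the mean of all 6 libraries followed GC content. The Spearman correlation across genes was 0.33 in WT replicate 2, −0.25 in WT replicate 3, 0.17 in MU replicate 3 and −0.12 to −0.08 in the others. WT replicate 2, with the positive correlation, was the lowest WT library for Tars2, and WT replicate 3, with the negative one, was the highest. The longest annotated Tars2 transcript has a GC content of 51.1%, above the median of 49.5%. After correction for GC content and length the Tars2 log2 fold change was −0.27 (limma adjusted p = 0.0884). The same correction moved the median over all tested genes from −0.055 to −0.0077. It also moved Tars from 0.02 to 0.10 and Tarsl2 from 0.01 to 0.09, so the shift was not particular to Tars2. With WT replicate 2 left out and no such correction, the Tars2 log2 fold change was −0.39, with a limma adjusted p = 0.0365. Of 11 fibroblast markers 10 passed the filter, with 4 called higher in MU and 1 lower, beside 7.12% and 11.6% of all tested genes. Col1a2 was at 2180 ± 69.6 TPM in MU and 859 ± 50.7 TPM in WT, and Col1a1 at 613 ± 47.0 and 326 ± 27.3 TPM. Dcn was at 8.13 ± 0.704 TPM in MU and 119 ± 19.7 TPM in WT, and S100a4 at 2586 ± 55.0 and 2921 ± 1298 TPM. Of 11 markers of other cell types 3 passed the filter, with Myod1 listed at 0 throughout. Tubb3 was at 0.0436 ± 0.0755 TPM in MU and 14.9 ± 0.983 TPM in WT, and Cdh5 at 0.105 ± 0.0118 and 1.82 ± 0.861 TPM. Gfap lay the other way, at 1.89 ± 0.489 TPM in MU and 0.899 ± 0.419 TPM in WT (limma adjusted p = 0.131). Whether these differences between the cultures have a part in the Tars2 values was not tested.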

How the data were processed

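Per the labels' protocols, 3 MU and 3 WT samples of poly(A) RNA were sequenced from strand-marking libraries. The submitters' processing notes name DESeq2 1.20.0, featureCounts 1.5.0-p3, HISAT2 2.05.0 and FastQC 0.11.4, with the build mm10. The sources used here do not give tool roles, strand setting or annotation. The deposited table holds the authors' log2 values per gene and library, which are log2(TPM + 1) per the file headers and the values. A second table deposited by the authors gives, per gene, the mean TPM of each group, their log2 fold change, and p-values before and after adjustment. TPM keeps no depth, so no counting interval was computed.

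Values were tested as log2(TPM + 1) with limma 3.58.1 in R 4.3.3 (trend, two-sided, no covariate, Benjamini-Hochberg adjustment over all tested genes). Genes had to reach 1 TPM in at least 3 of 6 libraries. Single ratios were compared with exact permutation tests. The test was checked on simulated data. Genes were matched by identifier to GENCODE M21 (55141 of 55401), with GC content and length known for 99.9% of tested genes. Promoters came from RefSeq, and coding windows, translations and alignments from GENCODE transcripts with Biopython 1.88.

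Genes were named by a rule: the 3 members; Sars, Sars2, Aars and Aars2; in each list the 2 higher and 2 lower genes with the smallest adjusted p; all genes of lists of up to 5; the nearest tested coding gene on each side; and the 3 best correlated coding genes per member. The members and all lists were chosen with earlier results of these data known. Tp53rk matched no row and was not analysed here. For 1 gene that enters the counts and medians, the values are not reported here. Alternatives were pseudocounts of 0.1 and 5, no filter, a minimum of 5 TPM, quantile normalization, median-of-ratios scaling, rescaling without mtDNA-encoded genes, limma without trend or with robust estimation, a replicate block, GC content and length correction (loess, span 0.3), centring on 20 neighbouring genes on each side, and leaving out each library.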

Additional observations from a re-analysis of the deposited data

How the results depend on the processing

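Tars2 kept its sign under all 18 alternatives, with log2 fold changes of −0.40 to −0.23 and limma adjusted p of 0.0365 to 0.198. It passed only without WT replicate 2 (−0.39, adjusted p = 0.0365), and leaving out 1 library gave −0.40 to −0.28. Quantile normalization gave −0.23 (adjusted p = 0.154) and median-of-ratios −0.28 (0.0903). Tars ranged from −0.01 to 0.15, passed nowhere, and ran from −0.0082 to 0.052 with 1 library left out, turning sign without MU replicate 3 (−0.0013) and without WT replicate 2 (−0.0082). Tarsl2 ran from −0.026 to 0.051 with 1 library left out, turning sign without MU replicate 2 (−0.025), WT replicate 2 (−0.026) and WT replicate 3 (−0.0065). The log2 ratio of Tars2 to Tars ran from −0.42 to −0.34 and that of Tarsl2 to Tars from −0.077 to 0.042. The summed TPM difference was −5.54 after rescaling without mtDNA-encoded genes.

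Of 14209 genes, 2667 passed; 1208 did with no filter on low values, where all genes enter the adjustment, and 1071 to 3391 with 1 library left out. The share of passing genes that were higher in MU was 37.9%, and 48.4% after rescaling, 48.9% after quantile normalization and 48.3% under median-of-ratios. Same-numbered libraries did not deviate together (correlations across genes of 0.05, 0.02 and −0.07), and differently numbered ones ran from −0.14 to 0.12. Such correlations cannot decide whether the numbers pair the samples, since pairing need not leave a trace across genes. With a replicate block 1093 genes passed, 1 mitochondrial and 0 cytosolic synthetases did, and Tars2 had an adjusted p = 0.131. Mitochondrial synthetases passing numbered 2, against 1 after rescaling and 0 to 3 with 1 library left out. Cytosolic ones numbered 5, against 2 under quantile normalization, 2 under median-of-ratios and 1 to 7 with 1 library left out. The causes were not tested.

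Over 35 named genes and 628 values under alternatives, 74 lost a call, 14 gained one and 21 turned sign. Cars2 lost its call under 14 settings and Slc7a5 under 12, while Yars2 lost it only without MU replicate 2 (adjusted p = 0.0547) and Eprs only under the block (0.05). Signs turned mostly for genes near 0. Sars gave 0.026 with quantile normalization and 0.0058 with position centring, and −0.22 to 0.0035 with 1 library left out. Aars2 gave 0.043 with rescaling, 0.043 with median-of-ratios, 0.011 with quantile normalization and 0.035 with GC correction, and −0.10 to 0.051 with 1 library left out. Tjp1 gave 0.031, 0.032, 0.053 and 0.045 in that order of settings, and −0.13 to 0.048 with 1 library left out. With 1 library left out, Dtd1 ran from −0.055 to 0.33, Dtd2 from −0.027 to 0.20 and Ecm1 from −0.025 to 0.18. Cars2 turned to 0.071 under position centring. The small number of libraries and unknown depth limit the precision of all values.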
